A study of Mus musculus with 4 samples.

Results

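The interferon response and viral sensing genes are 43 mouse genes, chosen by name, among the 55413 genes that GENCODE vM21 annotates on chromosomes 1 to 19, X and Y of GRCm38, 21938 of which are protein-coding. They comprise 7 sensors of foreign nucleic acid, 2 adaptors, 8 transcription factors, 3 receptor chains, 15 antiviral effectors, 3 protein modifiers and regulators, and 5 other genes induced by interferon. One of the effectors, Mx2, is annotated as a polymorphic pseudogene and the others as protein-coding, and Mb21d1 is listed there under its newer symbol, Cgas. Chromatin accessibility was measured by ATACseq, in which the Tn5 transposase cuts open DNA, and H2A.Z occupancy by ChIPseq on chromatin digested with micrococcal nuclease. The WT liver came from a Uhrf1-Fl/fl mouse and the Uhrf1hepKO liver from a Uhrf1-fl/fl;Alb:Cre mouse, so that both carried the floxed allele and the albumin promoter, which is active in hepatocytes, drove Cre in the latter. The mice were C57Bl/6 males of 8 to 12 weeks on a normal diet, and their livers were collected in the morning. There were 4 libraries, 1 for each assay and genotype, and the sources used here do not say whether the same livers gave both assays. The WT liver and the Uhrf1hepKO liver below therefore stand for the genotype. Since each condition has a single library, replicate error is unknown and no p-value is given. The intervals beside shares are Wilson 95% intervals and reflect counting error alone. The tissue was bulk liver, in which a site used by fewer cells and a weaker signal in each cell cannot be told apart.

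Cells detect viral nucleic acid with receptors such as RIG-I (gene Ddx58), MDA5 (Ifih1) and cGAS, which signal through MAVS or STING to the transcription factors IRF3 and IRF7 and so induce interferons. Type I interferon binds its receptor on the same and on neighbouring cells and activates a complex of STAT proteins and IRF9. This complex binds the interferon-stimulated response element (ISRE) in promoters of interferon-stimulated genes, whereas STAT dimers activated by interferon gamma bind the gamma-activated sequence (GAS). H2A.Z is a histone variant found in the nucleosomes on either side of many promoters, and UHRF1 is known for its part in the maintenance of DNA methylation.

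The promoters of these genes were searched on both strands for the ISRE core, which is GAAA, any 2 bases and GAAA, from 250 bases before to 50 after the transcription start site (TSS). It was found in 18 of the 43 members (41.9%, interval 28.4 to 56.7%), with 29 matches in all, counting overlapping ones. Of all protein-coding promoters of the same length 3.55% held it. The sequences below are those of members with an ISRE whose promoters are described later, and the capitals mark the matches to this core or to its reverse complement. They run 5′ to 3′ along the gene. The promoters and the sites of 30 bases come from the RefSeq promoter table of GRCm38.p6, in which 33 of the 43 members were matched and which runs from 250 bases before to 50 after the RefSeq start. The promoters are the 250 bases before that start, and sites may lie on either side of it. Those not matched were Dhx58, Tlr7, Zbp1, Tmem173, Mx1, Mx2, Oas2, Usp18, Ifi27 and Rtp4. Isg15, Oas1a, Ifit3 and Cxcl10 show promoters without an ATACseq peak over the ISRE, and Rsad2 shows one that had such a peak in the WT liver. Isg15 was added after its values were seen, because its 5 kb window holds an ATACseq peak that lies nearest another gene.
Isg15 promoter, chr4:156200819-156201068, minus strand: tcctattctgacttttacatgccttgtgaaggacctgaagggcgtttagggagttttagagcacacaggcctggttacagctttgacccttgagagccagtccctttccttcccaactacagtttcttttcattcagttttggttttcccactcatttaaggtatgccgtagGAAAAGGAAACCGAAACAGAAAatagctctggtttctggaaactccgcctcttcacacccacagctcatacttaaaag
Ifit3 promoter, chr19:34583279-34583528, plus strand: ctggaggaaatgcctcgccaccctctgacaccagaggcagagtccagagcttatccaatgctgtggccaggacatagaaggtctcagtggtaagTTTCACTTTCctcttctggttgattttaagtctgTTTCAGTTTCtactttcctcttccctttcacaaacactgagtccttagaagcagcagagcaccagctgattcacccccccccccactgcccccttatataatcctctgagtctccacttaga
Oas1a promoter, chr5:120907526-120907775, minus strand: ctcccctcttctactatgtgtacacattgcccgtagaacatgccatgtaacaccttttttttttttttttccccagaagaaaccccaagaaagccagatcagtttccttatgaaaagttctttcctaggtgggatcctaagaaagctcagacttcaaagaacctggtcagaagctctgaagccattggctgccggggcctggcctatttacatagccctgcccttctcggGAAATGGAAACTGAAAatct
Cxcl10 promoter, chr5:92348890-92349139, minus strand: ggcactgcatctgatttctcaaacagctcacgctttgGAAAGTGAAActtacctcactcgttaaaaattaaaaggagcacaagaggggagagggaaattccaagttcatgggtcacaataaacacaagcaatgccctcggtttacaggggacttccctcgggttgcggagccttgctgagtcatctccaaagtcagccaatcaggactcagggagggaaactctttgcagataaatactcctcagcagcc
Rsad2 promoter, chr12:26456453-26456702, minus strand: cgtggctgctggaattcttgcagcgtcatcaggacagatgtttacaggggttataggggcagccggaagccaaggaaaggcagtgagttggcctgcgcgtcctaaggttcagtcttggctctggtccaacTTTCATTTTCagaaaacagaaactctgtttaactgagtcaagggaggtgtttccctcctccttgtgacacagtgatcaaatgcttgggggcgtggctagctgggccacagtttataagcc
In 2 further cases the sequence under an ATACseq peak is shown, because the peak lay upstream of the TSS and held an ISRE. The Irf2 peak was called in the Uhrf1hepKO liver, and part of it overlaps an exon of the noncoding gene Gm16675. The distal Rsad2 peak was called in both livers and is given with the WT boundaries.
Irf2 ATACseq peak, chr8:46739433-46739550, plus strand: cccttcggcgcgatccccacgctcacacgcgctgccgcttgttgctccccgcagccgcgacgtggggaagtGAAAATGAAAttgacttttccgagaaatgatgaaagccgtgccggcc
Rsad2 ATACseq peak, chr12:26460234-26460433, minus strand: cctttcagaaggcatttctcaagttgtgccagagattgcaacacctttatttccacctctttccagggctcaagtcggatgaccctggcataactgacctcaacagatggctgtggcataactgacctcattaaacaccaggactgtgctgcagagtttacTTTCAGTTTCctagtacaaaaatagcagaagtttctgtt
Sites of 30 bases are shown for members whose ISRE lay in the gap between the H2A.Z summits on either side of the TSS.
Ifit1 site, chr19:34640785-34640814, plus strand: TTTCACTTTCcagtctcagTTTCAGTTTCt
Bst2 site, chr8:71537580-71537609, minus strand: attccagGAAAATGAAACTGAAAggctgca
Ddx58 site, chr4:40239804-40239833, minus strand: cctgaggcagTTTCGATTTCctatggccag
Ifih1 site, chr2:62646206-62646235, minus strand: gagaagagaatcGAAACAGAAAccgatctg
Eif2ak2 site, chr17:78882535-78882564, minus strand: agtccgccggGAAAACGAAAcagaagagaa
The ISRE of Isg15 is a run of 3 overlapping matches, and those of Oas1a and Bst2 are runs of 2. In Ddx58, Ifih1 and Eif2ak2 the match lay just after the TSS, at positions 5 to 14, 32 to 41 and 19 to 28, in exon sequence. A longer core, in which CT follows, was found in 11 members (25.6%) and in 0.356% of protein-coding promoters. A GAS match, TTC, any 3 bases and GAA on either strand, was found in 14 members (32.6%, interval 20.5 to 47.5%), against 8.39% of protein-coding promoters. These are matches of letters and not tests of binding.

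The lists differed in depth and length. The WT and Uhrf1hepKO ATACseq lists held 10582 and 10764 peaks on the chromosomes used, over a background of 1.56 and 2.004 reads per base, and the H2A.Z lists held 51450 and 47135 peaks over 3.10 and 3.30 reads per base. Where no peak is given, none passed the caller's cutoff at the depth of that library, and weaker signal was not examined. The fold of a peak is its enrichment over local background as the authors' caller gave it, averaged over the peak for ATACseq and taken at the summit for H2A.Z. Folds were not scaled between libraries, so a peak is ranked by its percentile within its own list. At Uhrf1 itself, each liver had 1 ATACseq and 1 H2A.Z peak near the TSS, and a peak there does not check the deletion. Markers of the liver's cell types were sparse in these lists. Of 10 hepatocyte genes 0 in WT and 2 in Uhrf1hepKO had an ATACseq peak at the TSS, and 2 and 2 an H2A.Z peak. For 8 Kupffer cell genes the ATACseq counts were 0 and 0 and the H2A.Z counts 1 and 1, for 8 T and NK cell genes 0 and 1 and then 0 and 1, for 5 B cell genes 1 and 0 and then 1 and 0, and for 6 endothelial genes 0 in all lists. Called peaks thus did not mark the tissue by its cell type genes, and the part of immune cells in the peaks below was not tested.

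H2A.Z peaks lay near the TSS of most interferon response genes in both livers. In the WT liver 36 of 43 members had an H2A.Z peak that reached within 5 kb of the TSS, called the window here (83.7%, interval 70.0 to 91.9%), where 52.8% of all protein-coding genes had one. In the Uhrf1hepKO liver it was 34 of 43 (79.1%, interval 64.8 to 88.6%), beside 51.0%. Members have few CpGs at their promoters, and protein-coding genes weighted to the same numbers of CpGs within 500 bp of the TSS gave 46.7% and 45.0%. ATACseq peaks were fewer. They lay in the window of 17 members in WT (39.5%, interval 26.4 to 54.4%), beside 30.2% of protein-coding genes, and of 16 members in Uhrf1hepKO (37.2%, interval 24.4 to 52.1%), beside 27.9%. Weighting by CpGs lowered the shares of protein-coding genes to 24.1% and 22.6%. Both unweighted shares lie inside the members' intervals, and both weighted shares lie below them.

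**Figure D1:**
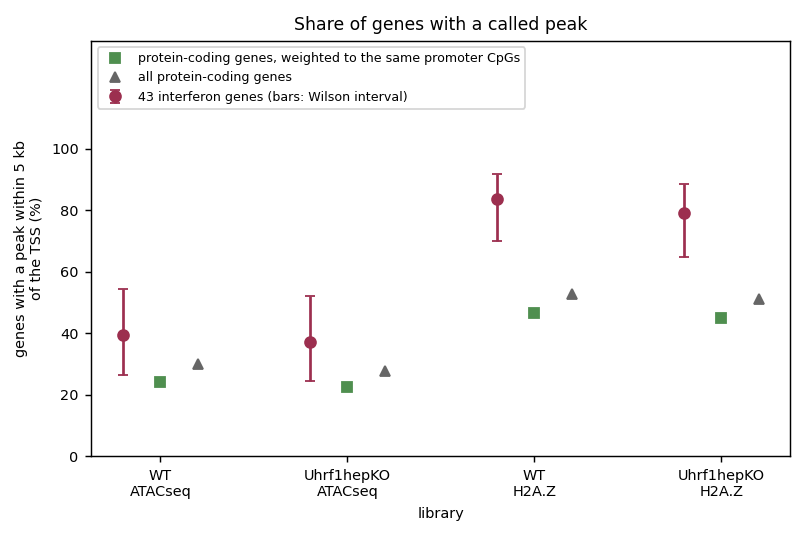
Share of genes with a called peak within 5 kb of the TSS (y axis, percent) in each of the 4 libraries (x axis), for the 43 interferon genes with Wilson 95% intervals, for all protein-coding genes and for protein-coding genes weighted to the same promoter CpGs. The H2A.Z shares of the interferon genes, 83.7% and 79.1%, stand above both reference points in either liver. The ATACseq shares, 39.5% and 37.2%, have intervals that reach the share of all protein-coding genes but not the weighted share.

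Among the members the most frequent pattern was H2A.Z without a detected ATACseq peak. It was seen in both livers at 17 members: the sensors Ddx58, Dhx58 and Tlr3, the transcription factors Irf1, Irf3 and Irf7, the receptor chain Ifnar2, the effectors Ifit1, Ifit2, Ifit3, Mx1, Oasl2 and Eif2ak2, the regulator Usp18, and Ifi35, Ifi44 and Cxcl10. Peaks of both assays were called in both livers at 11 members: Ifih1, Mb21d1, Mavs, Irf8, Irf9, Ifnar1, Ifngr1, Isg20, Mx2, Oasl1 and Trim25. At 5 members there was no peak of any library in the window, namely Tlr7, Tmem173, Oas1a, Oas2 and Oas3. The other members differed between the livers in at least 1 assay and are described by role below. Shares of protein-coding genes with these patterns are not given here, so whether they are particular to the members was not tested. The H2A.Z lists, with 51450 and 47135 peaks, were also longer than the ATACseq lists, with 10582 and 10764.

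**Figure D2:**
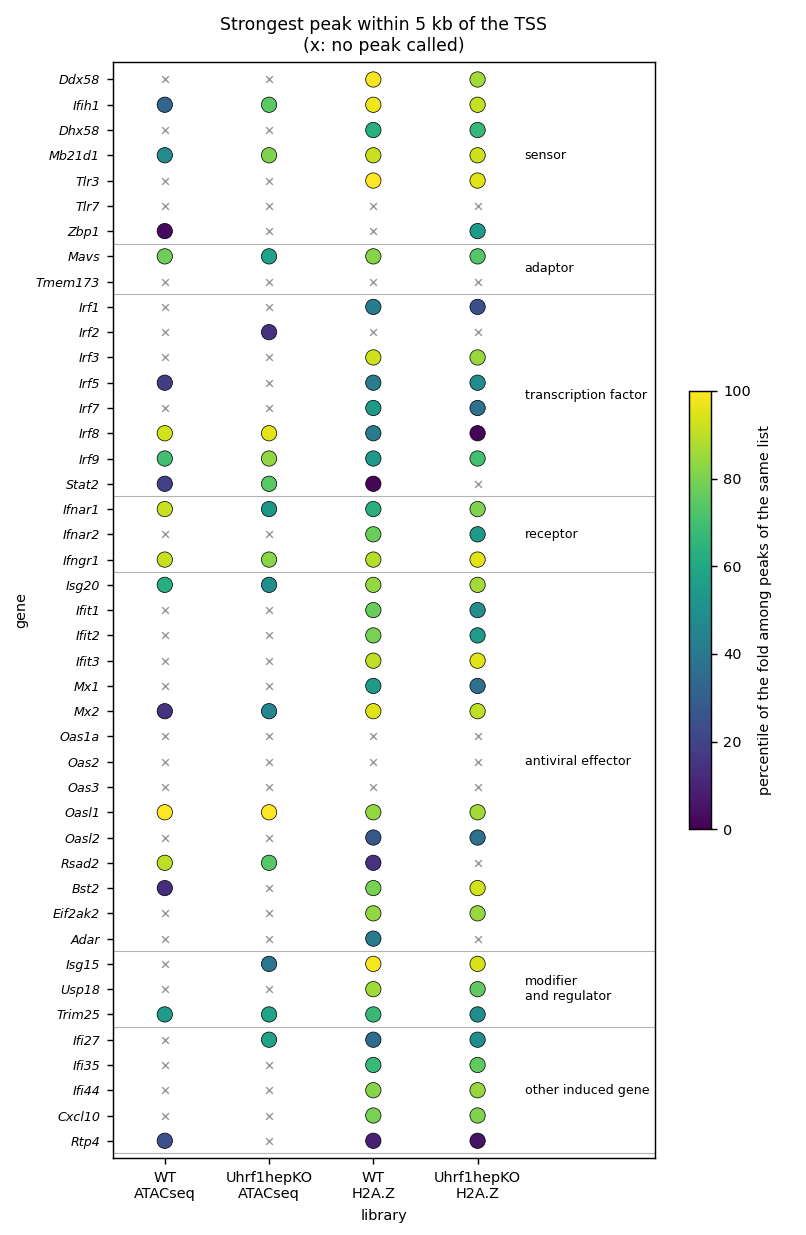
Strongest peak within 5 kb of the TSS of each of the 43 genes (y axis, grouped by role) in each library (x axis), coloured by the percentile of its fold among the peaks of the same list, with a cross where no peak was called. The 2 H2A.Z columns are filled for 36 and 34 genes and the 2 ATACseq columns for 17 and 16, and the 3 Oas genes, Tlr7 and Tmem173 are empty throughout.

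Few members had a peak in the window in 1 liver and not in the other. An ATACseq peak was called in Uhrf1hepKO and not in WT at 3 members (6.98%, interval 2.40 to 18.6%), Irf2, Isg15 and Ifi27, beside 4.85% of protein-coding genes. The reverse held for 4 members (9.30%, interval 3.68 to 21.6%), Zbp1, Irf5, Bst2 and Rtp4, beside 7.19%. For H2A.Z, Zbp1 was the 1 member with a peak in Uhrf1hepKO only (2.33%, interval 0.412 to 12.1%), beside 2.19%, and Stat2, Rsad2 and Adar were the 3 with a peak in WT only (6.98%), beside 3.95%. Each of these shares is near its background. The 4 ATACseq windows seen in WT only rested on weak peaks, with q-values from 0.0138 to 0.0876, and at a q-value of 0.01 or less 0 of them were left. Of the 3 seen in Uhrf1hepKO only, that of Ifi27 passed this filter, while the peaks at Irf2 and Isg15 had q-values of 0.0567 and 0.0107. With the filter 4 members had an ATACseq peak in Uhrf1hepKO only, Ifi27 and also Ifih1, Stat2 and Mx2, whose WT peaks had q-values of 0.0120, 0.0236 and 0.0227. No share of protein-coding genes under this filter is given here, so whether these 4 stand out was not tested. The WT library also had the lower background, 1.56 beside 2.004 reads per base.

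Peaks in the windows mostly coincided between the livers. Of the members' 72 H2A.Z peaks in WT 60 (83.3%, interval 73.1 to 90.2%) overlapped one in Uhrf1hepKO, beside 78.2% of all such peaks at protein-coding genes, and of the 75 in Uhrf1hepKO 60 (80.0%) overlapped one in WT, beside 84.3%. For ATACseq it was 12 of 18 in WT (66.7%, interval 43.7 to 83.7%), beside 72.8%, and 12 of 16 in Uhrf1hepKO (75.0%), beside 78.1%. Nearly all lay closer to the TSS of the member than to that of another protein-coding gene, the exceptions being 1 and 2 of the ATACseq and 4 and 5 of the H2A.Z peaks in WT and Uhrf1hepKO.

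**Figure D3:**
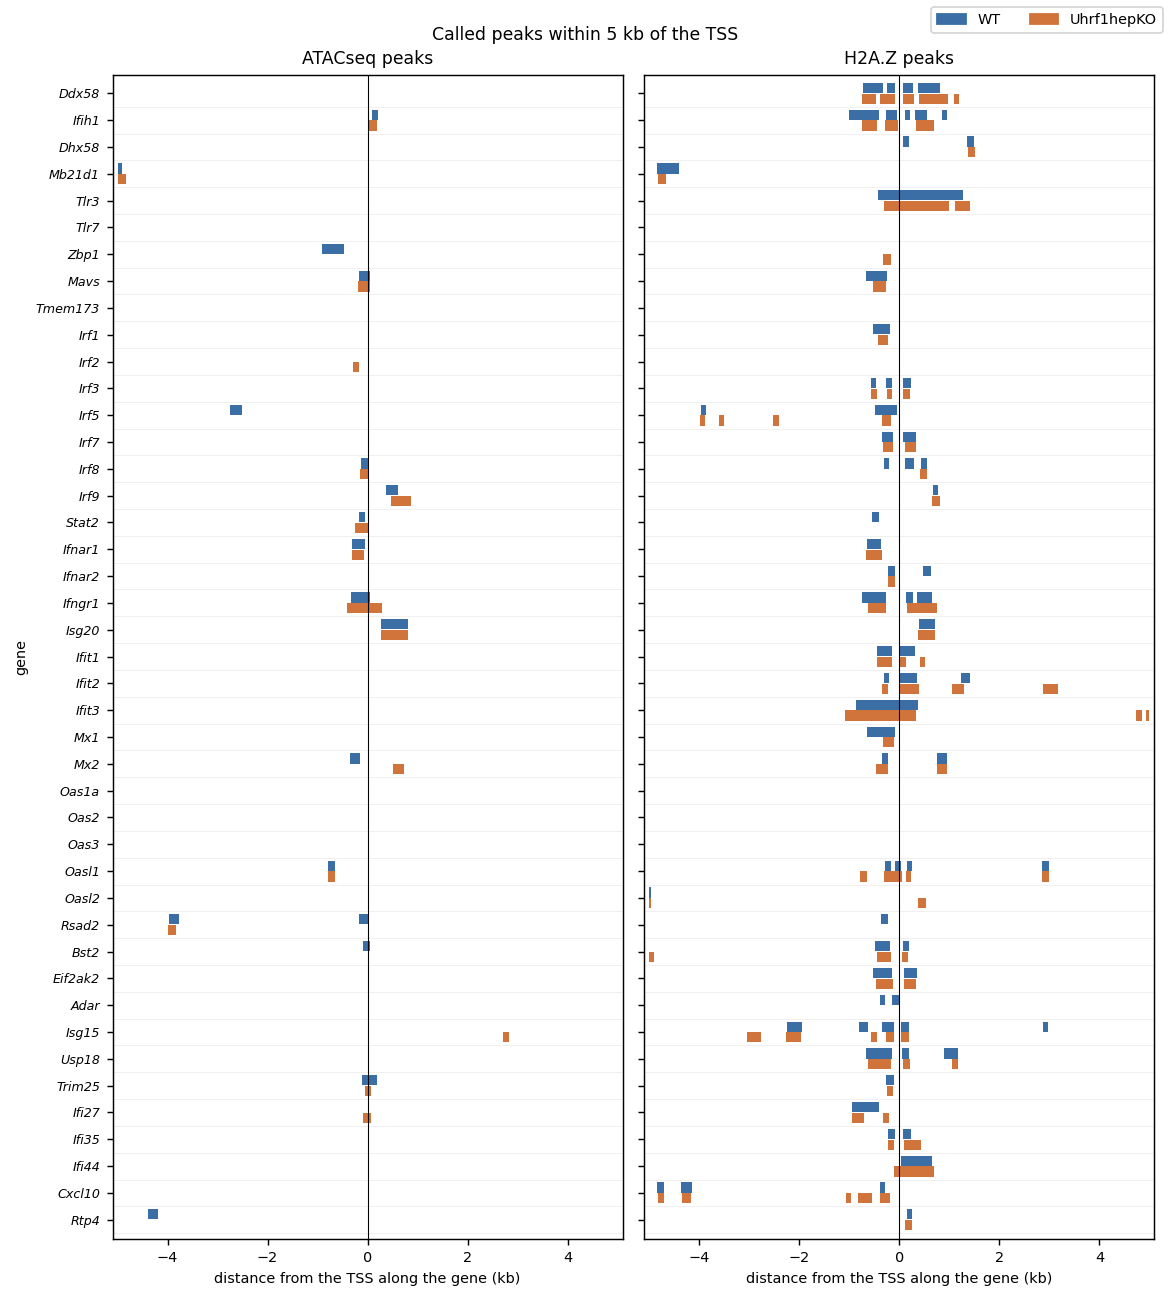
Called ATACseq peaks (left) and H2A.Z peaks (right) within 5 kb of the TSS of each gene (y axis), as bars at their distance from the TSS along the gene in kb (x axis), WT above Uhrf1hepKO. H2A.Z bars crowd on either side of the TSS and repeat between the livers, whereas ATACseq bars are few, and 11 of 18 in WT lie within 500 bp of the TSS of the gene itself.

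Among the sensors, Tlr3 had the strongest and widest WT H2A.Z peak of any member. It encodes the endosomal receptor for double-stranded RNA. Its promoter, with 6 CpGs within 500 bp of the TSS, was covered in WT by 1 H2A.Z peak of 1706 bp, from −432 to 1273 bp, with a fold of 13.9 at the 99.8th percentile. In Uhrf1hepKO the peak was 1317 bp wide, with a fold of 10.2 at the 95.4th percentile and a second peak of 300 bp behind it. No ATACseq peak was called at Tlr3 in either liver. Ddx58 encodes RIG-I, the cytosolic sensor of viral RNA ends. It had 4 H2A.Z peaks in the window in WT and 5 in Uhrf1hepKO. The strongest of these lay 163 bp upstream in WT (fold 11.7, 98.7th percentile) and 155 bp upstream in Uhrf1hepKO (fold 8.13, 86.2nd percentile), and the next ones flanked the TSS at 110 and 103 bp downstream. A further pair lay in the gene in both livers, with WT summits at 18022 and 18405 bp (folds 8.77 and 4.87) and Uhrf1hepKO summits at 18052 and 18437 bp (folds 8.37 and 5.35), ahead of a transcript start at 19228 bp.

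Ifih1, which encodes MDA5, the sensor of long double-stranded RNA, was the sensor with peaks of both assays at its own promoter in both livers. An ATACseq peak lay in the first exon, centred 147 bp after the TSS in WT (fold 3.94, 32.2nd percentile) and 107 bp after it in Uhrf1hepKO (fold 4.85, 74.5th percentile). The wider Uhrf1hepKO peak took in the ISRE and the WT peak did not. Its H2A.Z peak just upstream had a fold of 10.7 at −131 bp in WT and 9.06 at −115 bp in Uhrf1hepKO, at the 97.3rd and 91.3rd percentiles, and the number of H2A.Z peaks was 5 and 3. At Mb21d1, the gene of the DNA sensor cGAS, all 4 libraries held a peak some 5 kb upstream, and each was nearest the TSS of Mto1. The ATACseq centres lay at −5051 bp in WT (fold 4.25) and −4926 bp in Uhrf1hepKO (fold 5.13), so these peaks belong by position to the neighbouring gene. Dhx58, the gene of LGP2, a regulator of RIG-I and MDA5, had H2A.Z inside the gene at 1426 bp in WT (fold 5.61) and 1433 bp in Uhrf1hepKO (fold 6.27), and in WT also at 136 bp (fold 5.85).

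Zbp1, a sensor of Z-form nucleic acid that can start cell death, was the 1 member whose assays pointed in opposite directions. In WT an ATACseq peak of 424 bp lay 693 bp upstream, with a fold of 3.25 at the 2.62nd percentile and a q-value of 0.0876. The Uhrf1hepKO ATACseq list had none in the window. An H2A.Z peak lay 240 bp upstream in Uhrf1hepKO with a fold of 5.58 at the 54.3rd percentile, and the WT list had none. The 4 ISRE matches of Zbp1, between −99 and −36 bp, lay outside both peaks.

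Of the adaptors, Mavs had peaks of both assays and Tmem173, which encodes STING, had none. The ATACseq peak of Mavs covered the TSS in both livers, with a centre at −60 bp in WT (fold 5.30, 78.0th percentile) and −70 bp in Uhrf1hepKO (fold 4.25, 57.8th percentile). H2A.Z lay upstream of it, with summits at −329 bp in WT (fold 7.31) and −463 bp in Uhrf1hepKO (fold 6.74), and a downstream summit was called in neither liver.

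The transcription factors had the most CpG-rich promoters of the set, with a median of 56.5 CpGs within 500 bp of the TSS, close to the 56 of the receptors, beside 15 for the sensors and 15 for the effectors. ATACseq peaks lay at 4 of 8 in each liver and H2A.Z peaks at 7 and 6. Irf8, a factor of myeloid and B cells, had the strongest of these ATACseq peaks, just upstream of its TSS. The centre was at −69 bp in WT, with a fold of 6.54 at the 93.3rd percentile, and at −75 bp in Uhrf1hepKO, with a fold of 6.78 at the 95.6th. Its H2A.Z peaks numbered 3 in WT, on both sides of the TSS, and 1 in Uhrf1hepKO, 488 bp downstream with a fold of 2.82 at the 0.791st percentile.

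Irf9 and Stat2 encode the DNA-binding and activating parts of the complex that binds the ISRE. The ATACseq peak of Irf9 lay inside the gene, 483 bp after the TSS in WT (fold 4.92) and 672 bp after it in Uhrf1hepKO (fold 5.31), near a second annotated transcript start at 414 bp, with H2A.Z summits at 726 and 713 bp. At Stat2 the ATACseq peak was centred at −111 bp in WT, with a fold of 3.70 at the 18.9th percentile and a width of 130 bp. In Uhrf1hepKO it was centred at −109 bp, with a fold of 4.82 at the 74.0th percentile and a width of 293 bp. The WT H2A.Z peak of Stat2, at −471 bp, was among the weakest in its list (fold 2.92, 1.03rd percentile, q-value 0.0368), and none was called in Uhrf1hepKO.

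Irf2 and Irf5 each had an ATACseq peak in 1 liver. Irf2 encodes a factor that competes with IRF1 for the same sites. Its peak was called in Uhrf1hepKO, 118 bp wide and centred at −241 bp, with a fold of 3.42 at the 14.3rd percentile and a q-value of 0.0567. It held the ISRE of the promoter, shown above, and Irf2 had no H2A.Z peak in any list. The same liver had a second ATACseq peak far inside the gene, 65185 bp from the TSS (fold 3.82). Irf5 is a factor of myeloid cells downstream of Toll-like receptors. Its ATACseq peak was called in WT, 2636 bp upstream, with a fold of 3.68 at the 17.8th percentile. H2A.Z lay near the Irf5 TSS in both livers, at −265 bp in WT (fold 4.87) and −242 bp in Uhrf1hepKO (fold 5.35). Irf3 and Irf7, the factors that the sensors activate, had H2A.Z summits on both sides of the TSS in both livers and no detected ATACseq peak. The strongest folds were 9.02 in WT and 7.90 in Uhrf1hepKO for Irf3 and 5.36 and 4.88 for Irf7. Irf1 had a single upstream H2A.Z peak, at −275 bp in WT (fold 4.87) and −264 bp in Uhrf1hepKO (fold 4.42), although its promoter has 97 CpGs within 500 bp, the most of any member.

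All 3 receptor chains had H2A.Z in both livers, and 2 had ATACseq peaks. Ifnar1, a chain of the type I interferon receptor, had an ATACseq peak at −185 bp in WT, with a fold of 6.34 at the 91.7th percentile, and at −189 bp in Uhrf1hepKO, with a fold of 4.11 at the 52.4th. The H2A.Z peak upstream of it had a fold of 5.85 in WT (63.6th percentile) and 7.44 in Uhrf1hepKO (80.5th). Ifngr1, the ligand-binding chain of the interferon gamma receptor, had an ATACseq peak of 376 bp over its TSS in WT and of 691 bp in Uhrf1hepKO, with folds of 6.31 and 5.25. H2A.Z flanked this peak in both livers. Its upstream summit was at −397 bp in WT (fold 8.29, 89.0th percentile) and at −391 bp in Uhrf1hepKO, where the fold of 10.2 was shared with Tlr3 and Ifit3 as the highest in any member's window. Ifnar2 had H2A.Z at −151 bp in WT (fold 6.82) and −156 bp in Uhrf1hepKO (fold 5.58).

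Of the 15 antiviral effectors, H2A.Z peaks were called at 12 in WT and 10 in Uhrf1hepKO, and ATACseq peaks at 5 and 4. The Ifit genes, whose products bind viral RNA, stand in a cluster on chromosome 19 and all had H2A.Z without ATACseq. Ifit3 has 4 CpGs within 500 bp of its TSS, yet its H2A.Z peak ran over the whole promoter. It was 1243 bp wide in WT, from −875 to 367 bp, with a fold of 8.53 at the 90.3rd percentile, and 1418 bp wide in Uhrf1hepKO, from −1080 to 337 bp, with a fold of 10.2 at the 95.4th. At Ifit1 the peaks stood apart, with summits at −199 and 55 bp in WT (folds 5.61 and 6.82) and at −219 and 76 bp in Uhrf1hepKO (folds 4.42 and 5.35). The upstream summits lie nearest the TSS of Ifit1bl2. The flanking summits of Ifit2 were at −252 and 82 bp in WT and at −274 and 84 bp in Uhrf1hepKO. A further Ifit2 peak of 310 bp in an intron, 2933 bp after the TSS, was called in Uhrf1hepKO only (fold 5.11) and held 2 ISRE matches.

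The oligoadenylate synthetases split into those with and without peaks. These enzymes make the second messenger that activates RNase L. Oas1a, Oas2 and Oas3, neighbours on chromosome 5, had no peak of either assay in the window or the gene body, although each has an ISRE close to its TSS, with matches that begin at −24, −71 and −73 bp. Oasl1, a related gene whose protein is known to restrain the translation of Irf7, had the strongest ATACseq peak among the members in both livers. It was 137 bp wide at −723 bp in WT, with a fold of 15.5 at the 99.7th percentile, and 144 bp wide at −721 bp in Uhrf1hepKO, with a fold of 18.6 at the 99.8th. This site was 90.5% repeat-masked in WT and 86.8% in Uhrf1hepKO, and how reads with several placements were treated is not given in the sources used here. On the same stretch the Uhrf1hepKO H2A.Z list had a peak of 128 bp with a fold of only 1.57, at the 0.0212th percentile. Whether the ATACseq peak reflects open chromatin of Oasl1 was not tested. The Oasl1 promoter also had H2A.Z summits on both sides in both livers, at −48 and 216 bp in WT and −240 and 167 bp in Uhrf1hepKO, and its strongest H2A.Z peak in the window lay in an intron, at 2932 bp in WT (fold 7.56) and 2941 bp in Uhrf1hepKO (fold 8.13). Outside the window an exonic peak had folds of 6.09 at 9966 bp in WT and 9.30 at 9953 bp in Uhrf1hepKO. Oasl2 had a weak peak over repeat-masked sequence some 5 kb upstream in both livers, and in Uhrf1hepKO also a peak at 385 bp (fold 4.88).

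Rsad2, the gene of viperin, which makes a chain-terminating nucleotide, had promoter peaks of both assays in the WT lists and none in the Uhrf1hepKO lists. Its WT promoter had an ATACseq peak of 188 bp at −72 bp, with a fold of 4.36 at the 51.8th percentile, that held the ISRE. The WT H2A.Z peak beside it, at −294 bp, had a fold of 3.90 at the 14.1st percentile. Neither promoter peak had a counterpart in Uhrf1hepKO. A distal ATACseq peak was called in both livers, at −3881 bp in WT (fold 6.14, 90.1st percentile) and −3915 bp in Uhrf1hepKO (fold 4.81, 73.7th percentile). The ISRE shown above for the WT peak lay outside the shorter Uhrf1hepKO peak. Bst2, which encodes tetherin, a protein that holds budding virus on the cell, had an ATACseq peak of 141 bp over its TSS in WT only, with a fold of 3.61 at the 13.2nd percentile and a q-value of 0.0464. H2A.Z flanked the Bst2 TSS in both livers, at −246 and 118 bp in WT (folds 7.07 and 5.85) and at −252 and 126 bp in Uhrf1hepKO (folds 7.90 and 4.65). The strongest Uhrf1hepKO peak in the Bst2 window, with a fold of 9.53 at −5115 bp, lies nearest Mvb12a and overlaps a WT peak.

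Isg20, an exonuclease that degrades RNA, had an ATACseq peak inside the gene, centred 531 bp after the TSS in both livers. It was 535 bp wide with a fold of 4.68 in WT and 548 bp wide with a fold of 4.03 in Uhrf1hepKO, and it lay over a further transcript start at 557 bp and held an ISRE. The H2A.Z summit of Isg20 was within this peak, at 476 bp in WT (fold 7.56) and 451 bp in Uhrf1hepKO (fold 8.13). At Mx2, a dynamin-like GTPase, the ATACseq peaks of the livers did not meet. The WT peak was centred at −253 bp (fold 3.64, 14.7th percentile) and held the ISRE, and the Uhrf1hepKO peak was centred at 620 bp (fold 3.95, 45.8th percentile). A strong H2A.Z peak followed at 867 bp in WT (fold 9.75, 95.0th percentile) and 881 bp in Uhrf1hepKO (fold 8.83, 90.2nd percentile). The related Mx1, with 4 CpGs within 500 bp, had 1 upstream H2A.Z peak in each liver, 565 bp wide in WT (fold 5.36) and 217 bp wide in Uhrf1hepKO (fold 4.88).

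Eif2ak2 encodes PKR, a kinase that stops translation when it binds double-stranded RNA, and its H2A.Z pattern was nearly the same in the livers. The summits lay at −224 and 150 bp in WT, with folds of 7.56 and 6.58, and at −220 and 151 bp in Uhrf1hepKO, with folds of 7.90 and 6.74. Adar, the gene of an enzyme that edits double-stranded RNA, has more than 1 annotated start. At the 5′ end of the gene H2A.Z was called in WT only, at −338 bp (fold 3.20) and −52 bp (fold 4.87). A second transcript start, 15726 bp into the gene, was flanked in both livers. The WT summits there were at 15486 and 15875 bp with folds of 8.29 and 9.26, and the Uhrf1hepKO summits at 15504 and 16010 bp with folds of 11.9 and 10.2.

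The modifiers and regulators all had H2A.Z in both livers. Isg15 encodes a ubiquitin-like protein that is attached to other proteins after interferon. Its upstream H2A.Z peak had a fold of 11.5 at −183 bp in WT (98.5th percentile) and 9.30 at −195 bp in Uhrf1hepKO (92.3rd percentile), and its downstream peak a fold of 8.04 at 103 bp in WT and 9.76 at 98 bp in Uhrf1hepKO. The only ATACseq peak in the Isg15 window was called in Uhrf1hepKO, 2777 bp after the TSS and beyond the end of the gene (fold 3.80, 38.8th percentile), 553 bp from the TSS of Agrn. Usp18, which removes ISG15 from proteins, had H2A.Z summits at −401 and 114 bp in WT and at −272 and 142 bp in Uhrf1hepKO, with strongest folds of 7.80 and 6.97. Trim25, a ubiquitin ligase that acts on RIG-I, had an ATACseq peak over its TSS in both livers, 308 bp wide in WT (fold 4.45) and 119 bp wide in Uhrf1hepKO (fold 4.27), with H2A.Z at −180 bp (fold 6.09) and −200 bp (fold 5.35).

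Each of the 5 other induced genes had H2A.Z in both livers, and 2 had an ATACseq peak in 1 liver. At Ifi27 the ATACseq peak was called in Uhrf1hepKO, 156 bp wide and centred at −14 bp, with a fold of 4.26 at the 58.2nd percentile and a q-value of 0.00106. It held both ISRE matches of the promoter, and no WT peak was called in the window. The H2A.Z peak of Ifi27 nearest the TSS was at −721 bp in WT (fold 4.63) and at −253 bp in Uhrf1hepKO (fold 5.11). Rtp4 had an ATACseq peak in WT only, 4290 bp upstream (fold 3.80, 24.5th percentile, q-value 0.0138). The 5′ end of Rtp4 in the annotation is far from most of its transcript starts, and the TSS of Masp1 lies in the same window. Which gene the peaks in that window belong to was not tested. H2A.Z there was weak, with folds of 3.66 in WT and 3.49 in Uhrf1hepKO near 212 bp, while a pair of peaks flanked the starts at 89628 and 89634 bp, with summits at 89401 and 89733 bp in WT (folds 5.36 and 4.63) and at 89443 and 89704 bp in Uhrf1hepKO (folds 5.35 and 5.11). Cxcl10, a chemokine that draws T cells, had 3 H2A.Z peaks in WT and 5 in Uhrf1hepKO, covering 449 and 890 bp of the window. The peak nearest its TSS was 95 bp wide in WT (fold 5.12) and 195 bp wide in Uhrf1hepKO (fold 4.88), where it reached over the ISRE. Ifi35 was flanked in both livers (strongest folds 6.09 and 6.97), and Ifi44 had 1 peak, from 33 to 652 bp in WT (fold 7.31) and from −113 to 693 bp in Uhrf1hepKO (fold 7.90).

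Across the 33 members with H2A.Z in both livers, the amount covered did not move one way. In Uhrf1hepKO 16 had more and 17 fewer bp under H2A.Z peaks, with a median difference, Uhrf1hepKO minus WT, of −10 bp. The median was 449 bp in WT and 456 bp in Uhrf1hepKO, and among protein-coding genes 46.3% had more and the median difference was also −10 bp. The folds of the strongest H2A.Z peaks kept a similar order, with a Spearman correlation of 0.873 across these 33 genes (0.841 across protein-coding genes). Genes are not independent replicates, and the 2 lists come from 1 liver each. For ATACseq, 10 of the 13 members with peaks in both livers had more bp in Uhrf1hepKO, beside 42.7% of protein-coding genes. The median difference was 13 bp, but the medians were 227 bp in WT and 214 bp in Uhrf1hepKO, the reverse order. These 13 include Mx2, whose peaks did not meet, and Mb21d1, whose peaks lie at Mto1. At Mb21d1 the window cut the WT peak of 295 bp to 97 bp and the Uhrf1hepKO peak of 176 bp to 162 bp. The 2 ATACseq libraries also differ in background.

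**Figure D4:**
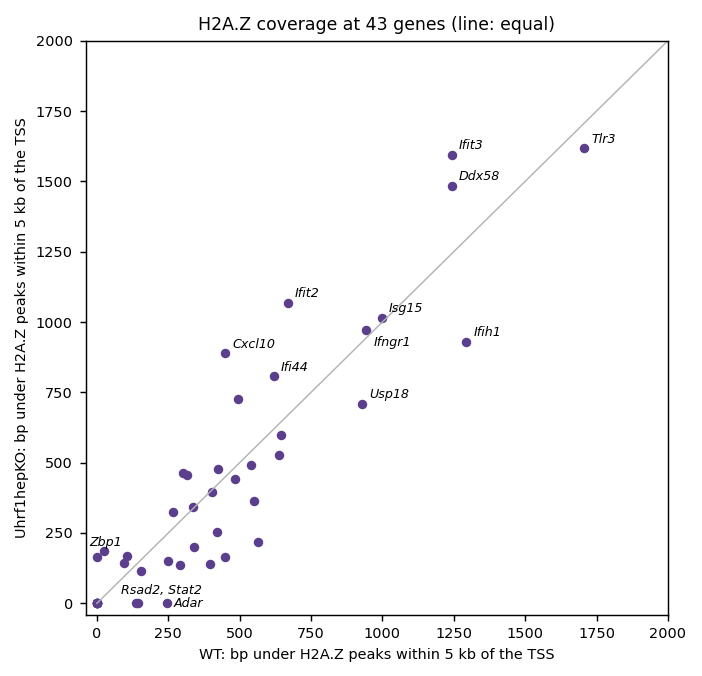
Base pairs under H2A.Z peaks within 5 kb of the TSS for each of the 43 genes, WT on the x axis and Uhrf1hepKO on the y axis, 1 point per gene, with a grey line where both are equal. Points scatter on both sides of the line, 16 above and 17 below among genes with peaks in both livers, with Tlr3 farthest out in WT at 1706 bp and Zbp1 (WT at 0), Stat2, Rsad2 and Adar (Uhrf1hepKO at 0) on the axes.

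H2A.Z stood on both sides of the TSS, with a summit within 1 kb upstream and another within 1 kb downstream, at 16 members in WT (37.2%, interval 24.4 to 52.1%), beside 22.8% of protein-coding genes. In Uhrf1hepKO it was 14 members (32.6%, interval 20.5 to 47.5%), beside 20.9%. The gap between the nearest summits had a median of 363.5 bp in WT, from 254 bp at Ifit1 to 1151 bp at Mx2, and of 374.5 bp in Uhrf1hepKO, from 258 bp at Ddx58 to 1141 bp at Mx2. Among protein-coding genes the medians were 530 and 535 bp. The 8 members that had both an ISRE and flanking summits were the same in both livers, Ddx58, Ifih1, Ifit1, Mx2, Bst2, Eif2ak2, Isg15 and Usp18. Their 13 ISRE matches all lay between the summits, and 0 of 13 lay under an H2A.Z peak in either liver, although 41.5% of the promoter bases of these genes in WT and 40.4% in Uhrf1hepKO were under one. In protein-coding genes chosen the same way, 81.4% of 226 matches in WT and 80.8% of 203 in Uhrf1hepKO lay between the summits, and 45.6% of 226 matches in WT and 51.7% of 203 in Uhrf1hepKO were under an H2A.Z peak. These shares are a description, made after the peaks of the members were seen. The 13 count overlapping matches at Isg15 and Bst2 singly, so they are not 13 separate sites. At other promoter matches the ISRE and H2A.Z did meet, at both matches of Ifit3 in both livers and at Cxcl10 in Uhrf1hepKO. Neither gene had summits on both sides of the TSS, so neither was among the 8. Beyond the promoter stretch, H2A.Z peaks held ISRE matches at Isg20 and Oasl1 in both livers. The same was seen at Tlr3 and Ifi27 in WT and at Ifit2 in Uhrf1hepKO. Oasl1 had flanking summits in both livers, and its match lay under the upstream H2A.Z peak.

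Of the 29 ISRE matches in promoters 2 were under an ATACseq peak in WT, at Mx2 and Rsad2. In Uhrf1hepKO it was 4, at Ifih1, Irf2 and Ifi27, so none of the 29 was covered in both livers. The same share over all protein-coding promoters is not given here. Outside the promoter stretch, the ATACseq peak of Isg20 held an ISRE in both livers and the distal Rsad2 peak held one in WT. The 18 members with an ISRE had a median of 15 CpGs within 500 bp of the TSS, and 5 had an ATACseq peak in the window in WT and 6 in Uhrf1hepKO. The 25 members without an ISRE had a median of 28 CpGs, with 12 and 10. H2A.Z was called at 13 and 13 of the former and at 23 and 21 of the latter. Over all protein-coding genes ATACseq peaks were called at 30.2% in WT and 27.9% in Uhrf1hepKO, and H2A.Z peaks at 52.8% and 51.0%.

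**Figure D5:**
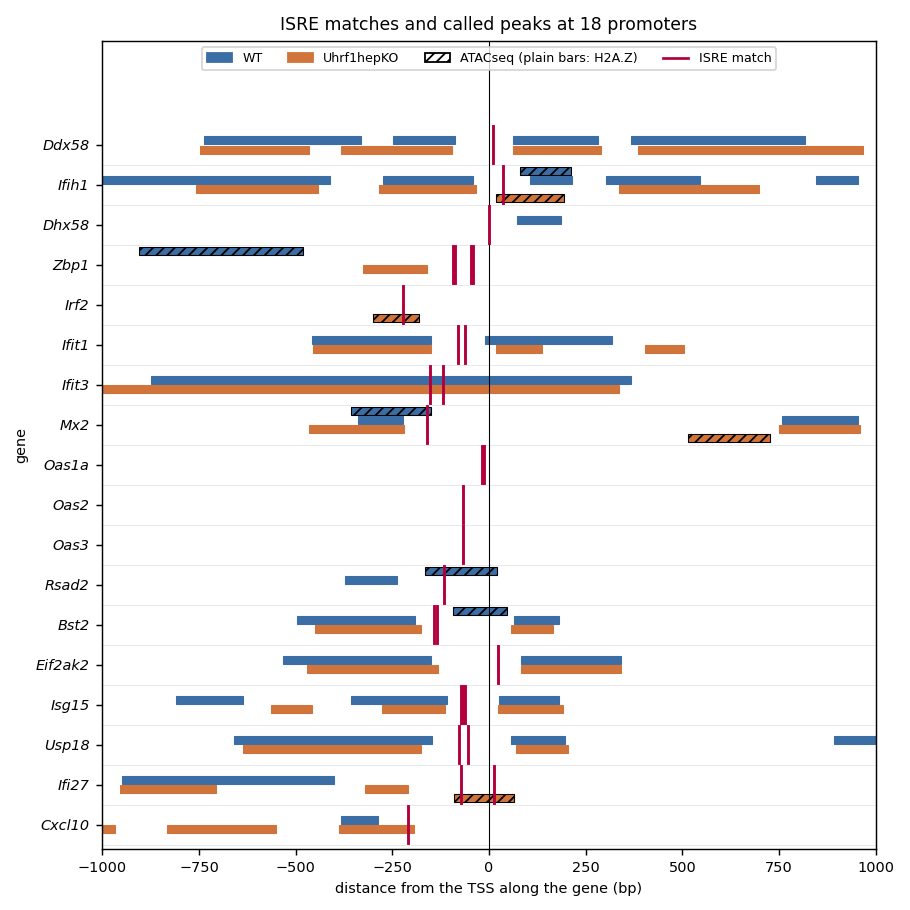
ISRE matches (red lines) and called peaks (plain bars H2A.Z, hatched bars ATACseq, WT above Uhrf1hepKO) at the 18 promoters with a match, as distance from the TSS in bp (x axis) for each gene (y axis). At 8 genes the matches fall in the gap between H2A.Z bars, at Ifit3 they lie under 1 wide bar, and the rows of Oas1a, Oas2 and Oas3 hold matches and no bars.

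Most members with a peak in the gene body had it in the first 1 kb only, more so for ATACseq than for H2A.Z. An ATACseq peak overlapped the body of 10 members in WT (23.3%, interval 13.2 to 37.7%), beside 30.0% of protein-coding genes, and of 12 in Uhrf1hepKO (27.9%), beside 28.4%. For H2A.Z it was 25 in each liver (58.1%, interval 43.3 to 71.6%), beside 46.2% and 43.4%. Without the first 1 kb the ATACseq counts fell to 1 and 2 and the H2A.Z counts to 10 and 11. Shares of protein-coding genes without the first 1 kb are not given here. The 1 WT member with a distant ATACseq peak was Oasl1, at 10078 bp (fold 3.52, q-value 0.0673), and the 2 in Uhrf1hepKO were Ddx58, at 34150 bp in an exon (fold 4.62), and Irf2. In the body of Irf8 an H2A.Z peak was called in Uhrf1hepKO at 15841 bp (fold 5.35), beside an annotated transcript start at 15851 bp.

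Other genes of the interferon pathway, a list of 58 that holds none of the members, had H2A.Z peaks in the window at 53 genes in WT (91.4%) and 50 in Uhrf1hepKO (86.2%), beside 52.8% and 51.0% of protein-coding genes. ATACseq peaks lay at 15 (25.9%) and 10 (17.2%), beside 30.2% and 27.9%. An ATACseq peak in WT only was called at 9 of the 58 (15.5%, beside 7.19%), the signalling genes Traf3 and Myd88, the GTPases Igtp, Irgm2 and Gbp7, and Trim21, Cmpk2, Herc6 and Ube2l6. The strongest of these was that of Trim21, a cytosolic antibody receptor, centred at −20 bp with a fold of 6.02. The weakest were those of Igtp and Irgm2, at −24 and −86 bp. Both had a fold of 3.68 and the same H2A.Z folds, so 1 peak may have been counted for both genes. The q-value filter used for the members was not applied to these 58 genes. An ATACseq peak in Uhrf1hepKO only was called at 4 (6.90%, beside 4.85%), the feedback inhibitor Socs1, Parp12, the immunoproteasome subunit Psmb10 and Lgals3bp, with folds of 4.22, 3.46, 3.30 and 3.62. H2A.Z in WT only was called at 3 (5.17%, beside 3.95%), Il10rb, Psmb10 and Ifitm2, with folds of 3.90, 5.61 and 3.90, and in Uhrf1hepKO only at 0.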

How the data were processed

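The peak lists of 4 libraries from WT and Uhrf1hepKO liver were analysed. The authors aligned reads to GRCm38.p4 with BWA-MEM, sorted and cleaned them with PICARD, and removed duplicates for ChIPseq. They ran MACS2 on each library, in broad mode for ATACseq. The paper gives a p-value of 0.05 for its peak calls. The highest q-values in the lists were 0.0997 (WT) and 0.0993 (Uhrf1hepKO) for ATACseq and 0.04996 and 0.0489 for H2A.Z. The lists of the 2 assays thus ended at different q-values. The mode for H2A.Z and the MACS2 version are not given in the sources used here. FastQC 0.11.5 and Trimmomatic are named in the submitters' processing notes. The deposited fold is a ratio of pileup to local background. The deposited p-values and q-values are given as −log10. The deposited H2A.Z summit is an offset (bp) within the peak.

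Peaks of chromosomes 1 to 19, X and Y were matched to GENCODE vM21 genes with an overlap of 1 bp or more, and positions are from the 5′ end of the gene along its strand. The members, the 58 other pathway genes and the marker lists were chosen with earlier results of these data known. Values were printed for members with an ATACseq peak, for members with H2A.Z in 1 liver, and for the 5 highest H2A.Z folds per liver, and others were chosen after their values were seen. CpG weighting averaged protein-coding genes over 10 CpG classes in the members' proportions. Depth was read from the commonest fold of each list, taken as pileup plus 1 over background plus 1. Windows, starts, filters, overlaps, CpG classes and motifs were varied 1 at a time. Steps were tested on simulated data. Computations ran in Python 3.11.15 with scipy 1.17.1, numpy 2.4.6 and pandas 2.3.3, and plots in matplotlib 3.10.9.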

Additional observations from a re-analysis of the deposited data

How the results depend on the processing

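Of 82 values recomputed under alternatives, 69 stayed within 1.5 times the reported count or within its interval, and 13 moved. The number of members with a WT ATACseq peak went from 17 to 9 with peaks at or above the median fold and to 10 with peaks of q 0.01 or less, and the members with one in WT only from 4 to 1 and to 0, while those with one in Uhrf1hepKO only went from 3 to 4 under both filters. Members with H2A.Z in Uhrf1hepKO only went from 1 to 2 with a window of 1 kb, to 3 with peaks at or above the median fold, to 2 with equal numbers of strongest peaks and to 2 when the peak centre had to lie in the window. Gene bodies without the first 1 kb left 1 and 2 members with ATACseq peaks and 10 and 11 with H2A.Z. The longer ISRE core was found in 11 members. Leaving out chromosome 5, which holds the Oas cluster, and keeping only windows free of other coding TSSs were chosen after seeing the data, and neither moved a count by more than 1.5 times. Stricter filters keep fewer peaks, and other causes of these moves were not tested. For these peak counts, no share of protein-coding genes under the alternatives is given here. No paired analysis was possible because each group has 1 library. The spread between mice is unknown, and the background of 1.56 to 3.30 reads per base limits what could be detected.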

Other observations

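Outside the members, several genes of the wider interferon pathway had H2A.Z peaks with folds near those of Tlr3 (13.9 in WT and 10.2 in Uhrf1hepKO). They are named here after their values were seen, from the list of 58. Irgm1, a GTPase of autophagy and defence against bacteria, had H2A.Z summits at 394 bp in WT and 387 bp in Uhrf1hepKO, with folds of 13.4 and 11.6, and no detected ATACseq peak. Samhd1, which depletes the nucleotides that retroviruses need, had folds of 11.2 at −174 bp in WT and 13.5 at −170 bp in Uhrf1hepKO, with an ATACseq peak in both livers (folds 5.91 and 4.15). Ddx60, a helicase gene, had folds of 9.26 at −179 bp and 13.0 at −185 bp. At Pml, the gene of the nuclear body scaffold, they were 12.9 at −171 bp and 11.4 at −177 bp.

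The list also holds 3 interferon genes. Ifnb1, which encodes interferon beta, had no ATACseq peak in the window and an H2A.Z peak upstream in both livers, at −2265 bp in WT with a fold of 3.90 and at −2256 bp in Uhrf1hepKO with a fold of 3.25. Ifnk, which encodes interferon kappa, had H2A.Z peaks with folds of 3.84 at 4002 bp in WT and 5.11 at 4500 bp in Uhrf1hepKO. Ifng, a product of T and NK cells, had no peak in its window in any list. The kinase genes Jak1 and Tyk2 each had peaks of both assays in both livers, with ATACseq folds of 4.18 and 4.55 in WT and 3.82 and 3.73 in Uhrf1hepKO.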
